A study of Homo sapiens with 9 samples.

Results

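The genes of homologous recombination and of the Fanconi anemia pathway were followed in human adrenocortical H295R cells under starvation with metformin, under starvation and under normal growth. The members are 39 listed repair genes, and each is represented by the brightest probe set that the array annotation assigns to that gene alone. Of the 39 genes, 34 had such a probe set, among 18417 named genes of the array, and none of the 34 had more than 1. RAD51D is measured only by a probe set shared with the readthrough gene RAD51L3-RFFL, and BRCA2, RBBP8, FANCA and FANCD2 are not analysed here. H295R is an established line from an adrenocortical carcinoma that makes adrenal androgens, glucocorticoids and mineralocorticoids. All cells were plated in growth medium for 24 h and then kept for 48 h in serum-free medium with 10 mM metformin, in serum-free medium, or in growth medium. The growth medium held NU-I serum with insulin, transferrin and selenium, and the serum-free medium held none of them, so that loss of serum and loss of these supplements cannot be told apart. There were 3 arrays in each group and 9 in all. The study's methods speak of separate experiments for starvation and normal growth only, so that for the metformin arrays the p values may rest on technical spread alone.

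Homologous recombination repairs broken chromosomes by copying the intact sister chromatid. The broken end is found and resected to a single strand, the BRCA1, BARD1 and PALB2 proteins prepare this strand for pairing, helper proteins let it invade the sister, and helicases and nucleases take the joined molecules apart. The Fanconi anemia pathway opens crosslinks between the DNA strands at stalled replication forks. Its core complex, with FANCL as ubiquitin ligase and UBE2T as the conjugating enzyme, marks the pair FANCD2 and FANCI, and recombination then completes the repair. Many of these genes are transcribed mainly in S phase and G2, in cells that divide. Metformin is a biguanide drug that inhibits complex I of the respiratory chain.

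The values are log2 signals made by robust multi-array average (RMA), so that a difference of 1 is 2-fold. The medians of the 9 arrays lay between 6.04 and 6.16, and the mean signals of the 34 members lay above the array medians in each group. Correlations between arrays across all probe sets ranged from 0.984 to 0.997, with the lowest between starved replicate B and metformin replicate A. Of 12 adrenocortical markers measured, 9 lay above the array median in each group, with the steroidogenic genes NR5A1, STAR and CYP11A1 among them, and 5 were lower and 1 was higher with metformin than in normal growth. The mean level of the 12 was 8.64 to 8.87 over the metformin arrays, 8.85 to 8.92 over the starved arrays and 9.12 to 9.22 over the arrays of normal growth. Of the other cell types, 0 of 10 fibroblast, 0 of 8 endothelial and 0 of 7 immune markers passed the test in any comparison, and 1 of 9 epithelial markers, EPCAM, was higher with metformin than in normal growth. Fewer cells of a type and less RNA per cell cannot be told apart in such bulk samples.

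In starved cells with metformin, 7 of the 34 repair genes were lower than in normal growth and 0 were higher (limma, adjusted p under 0.05 over all probe sets). They were BRIP1, BLM, EXO1, FANCC, RAD54L, RAD51AP1 and FANCI, and their falls were between 1.28-fold for FANCI and 1.66-fold for BRIP1. None reached the 2-fold limit that the study used. Over all probe sets 4.44% were lower and 4.63% were higher in this comparison, and 9.5% of the named genes brighter than the median probe set were lower. At an unadjusted p under 0.05 in limma, 17 members and 11.2% of all probe sets were lower. The median log2 change of the members was -0.25, against 0 for all probe sets and -0.02 for the named genes. It was below 0 in 28 of the 34 members and in 50.9% of all probe sets. In 18 members every metformin array was below every array of normal growth, beside 14.1% of all probe sets.
The count depended on single arrays. With normal growth replicate A, B or C left out, 0 members passed in limma, and 230, 239 and 246 probe sets passed as lower, against 1478 with all arrays. At an unadjusted p under 0.05 the members lower were then 13, 15 and 13, beside 8.88%, 8.99% and 8.62% of all probe sets. Without metformin replicate A, B or C, 5, 4 and 8 members passed, all of them lower except ATM in the last. The probe sets lower were then 2.44%, 3.16% and 4.97%, and 2079 probe sets were higher without replicate C. RAD54L and BLM passed whichever metformin array was left out.

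**Figure D1:**
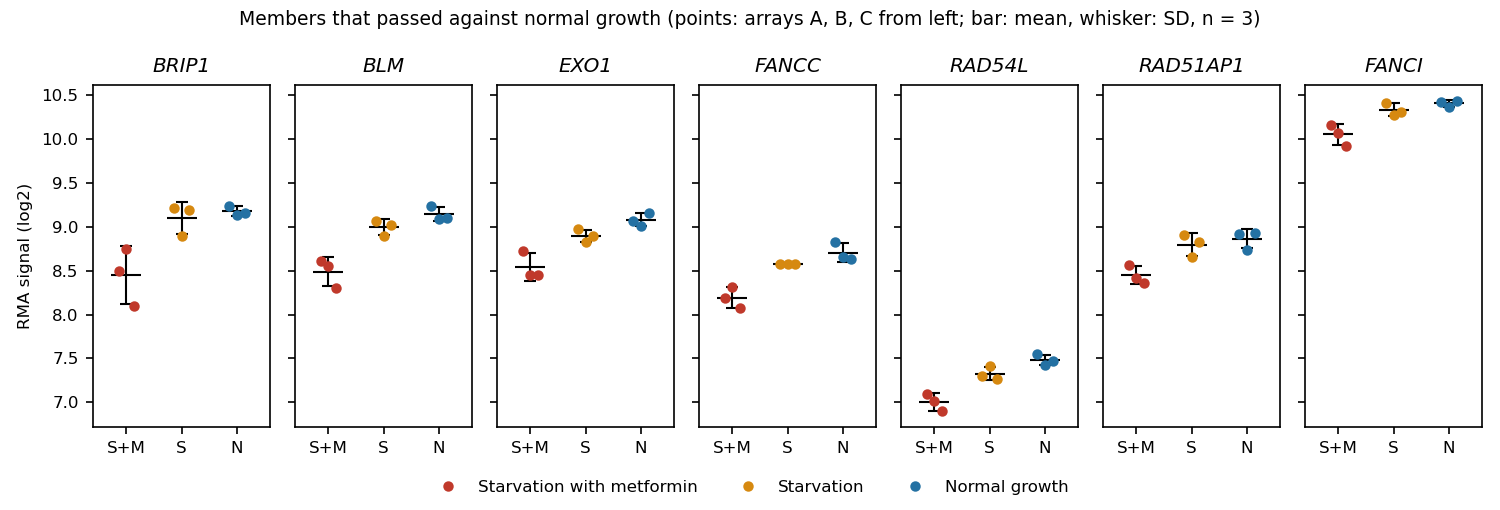
RMA signal (log2, vertical axis) of the 7 repair genes that were lower in starvation with metformin (S+M, red) than in normal growth (N, blue), with starvation (S, orange) between them. Points are the 3 arrays of each group, horizontal bars the means and whiskers the SD (n = 3); in each gene the 3 metformin arrays lie below the other 6 arrays.

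Of the 4 recombination mediators measured, BRIP1 fell and the other 3 did not pass. BRIP1 encodes a helicase that binds BRCA1 and is also the Fanconi gene FANCJ. Its signal was 8.50, 8.75 and 8.10 on metformin arrays A, B and C, 9.21, 8.89 and 9.19 on the starved arrays and 9.24, 9.13 and 9.16 in normal growth. The metformin arrays were the 3 lowest and were spread over a wider range than those of the other groups. The log2 change between starvation with metformin and normal growth was -0.73 (SE 0.16, limma adjusted p = 0.049), and it did not pass without metformin replicate A (adjusted p = 0.12) or after a shift of every array to one median. BARD1, the partner of BRCA1 in its ubiquitin ligase, had 8.04, 8.15 and 7.82 with metformin and 8.32, 8.32 and 8.24 in normal growth. These groups did not overlap, and the change of -0.29 (SE 0.09) did not pass (limma adjusted p = 0.133). BRCA1 and its binding partner PALB2 overlapped between all groups. Their log2 changes were -0.08 (95% interval -0.35 to 0.19) for BRCA1 and 0.03 (95% interval -0.14 to 0.19) for PALB2.

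Of 3 genes whose products help the broken strand invade the sister chromatid, 2 were lower in starvation with metformin than in normal growth. Against starvation 0 of the 3 passed. RAD54L, a motor protein that drives strand exchange, had signals of 7.10, 7.01 and 6.90 with metformin, 7.30, 7.41 and 7.27 in starved cells and 7.55, 7.43 and 7.47 in normal growth. All 3 metformin arrays lay below the other 6. The change from normal growth was -0.48 (SE 0.07, limma adjusted p = 0.0159). RAD51AP1, which stimulates joint formation, had 8.56, 8.42 and 8.36 with metformin, 8.91, 8.65 and 8.83 in starved cells and 8.92, 8.74 and 8.93 in normal growth. Its change was -0.42 (SE 0.08, limma adjusted p = 0.034), and the call was lost without metformin replicate A, B or C (adjusted p = 0.05, 0.093 and 0.0596). RAD54B, a relative of RAD54L, had a change of -0.27 (SE 0.11, limma adjusted p = 0.221). A further 4 genes, whose products assist strand pairing, did not pass, with changes of -0.29 for XRCC3, -0.26 for XRCC2, -0.23 for RAD51C and -0.09 for RAD51B, each with an SE between 0.09 and 0.11.

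EXO1 was the member of the resection group that fell. The product is the exonuclease that extends single-stranded ends after the first cut. EXO1 had 8.72, 8.45 and 8.45 on the metformin arrays, 8.97, 8.83 and 8.89 on the starved arrays and 9.07, 9.01 and 9.16 in normal growth, in which order the groups followed each other without overlap. Its change from normal growth was -0.54 (SE 0.09, limma adjusted p = 0.0229), and it did not pass without metformin replicate B (adjusted p = 0.0663). The 3 genes of the MRN complex, which binds broken ends first, gave no call. MRE11 had a change of -0.21 (SE 0.11), RAD50 of -0.03 (SE 0.08) and NBN of 0.16 (SE 0.06). The 3 metformin arrays of NBN, at 9.65, 9.61 and 9.51, lay above the arrays of normal growth, at 9.50, 9.38 and 9.42 (limma adjusted p = 0.205).

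Of the genes whose products take joint molecules apart, BLM fell. BLM is the helicase mutated in Bloom syndrome, which dissolves double Holliday junctions with a topoisomerase. BLM was at 8.61, 8.55 and 8.30 with metformin, 9.07, 8.89 and 9.02 in starved cells and 9.24, 9.09 and 9.10 in normal growth. The metformin arrays were separated from the other 6 by a gap larger than the spread of either of the other groups. The change was -0.66 (SE 0.10, limma adjusted p = 0.0162). GEN1, a nuclease that cuts Holliday junctions, had 8.13, 8.07 and 7.58 with metformin, 8.44, 8.14 and 8.31 in starved cells and 8.51, 8.40 and 8.56 in normal growth. Replicate C was far below the other metformin arrays, and the change of -0.56 (SE 0.15) did not pass (limma adjusted p = 0.0832). EME1, the partner of the MUS81 nuclease, had a change of 0.05 (95% interval -0.12 to 0.21).

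Within the Fanconi core complex, FANCC was lower in starvation with metformin and 6 of the 7 measured genes did not pass. FANCC, which joins FANCE and FANCF in a module of the complex, had 8.19, 8.31 and 8.07 with metformin, 8.58, 8.57 and 8.58 in starved cells and 8.83, 8.65 and 8.63 in normal growth. The starved arrays nearly coincided, which is no measure of the variation between cultures, and the metformin arrays lay below them without overlap. Its change from normal growth was -0.51 (SE 0.09, limma adjusted p = 0.0242), and it did not pass without metformin replicate A (adjusted p = 0.0726). The partners FANCE and FANCF had changes of 0.16 (SE 0.08) and 0.06 (SE 0.10), with every metformin array of FANCE above the arrays of normal growth. FANCF had nearly the same value, 7.08, on the 3 arrays of normal growth, and so small a spread is no measure of the variation between cultures.
FANCG, which binds FANCA, and FANCB, which binds FANCL, had changes of -0.31 (SE 0.08, limma adjusted p = 0.0702) and -0.44 (SE 0.11, limma adjusted p = 0.0715), both without overlap between the groups. FANCM, the translocase that anchors the complex on DNA, had 6.96, 6.69 and 6.19 with metformin and 7.18, 7.0 and 7.28 in normal growth, a change of -0.54 with an SE of 0.20 (limma adjusted p = 0.178). FANCL, the ligase itself, had a change of -0.12 (95% interval -0.34 to 0.09).

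FANCI, the substrate partner of FANCD2, was lower in starvation with metformin than in normal growth. Its signals were 10.16, 10.07 and 9.92 with metformin, 10.41, 10.27 and 10.31 in starved cells and 10.42, 10.36 and 10.43 in normal growth. The change from normal growth was -0.35 (SE 0.07, limma adjusted p = 0.0425), which did not pass without metformin replicate B (adjusted p = 0.0976). UBE2T had 10.11, 10.00 and 10.11 with metformin and 10.09, 10.12 and 10.21 in normal growth. These overlapped, and the change was -0.07 (95% interval -0.22 to 0.08).

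None of the 5 checkpoint genes passed. CHEK1, the effector kinase of the replication checkpoint, had 9.81, 9.73 and 9.63 with metformin and 10.04, 9.91 and 10.02 in normal growth. The groups did not overlap, and the change was -0.27 (SE 0.07, limma adjusted p = 0.0741). TOPBP1, which activates ATR, had a change of -0.23 (SE 0.07, limma adjusted p = 0.124). The apical kinases ATM and ATR had changes of 0.10 (SE 0.13) and -0.01 (SE 0.14). In both, metformin replicates A and B lay above every array of normal growth and replicate C below every one, at 8.95, 8.89 and 8.48 for ATM and 8.09, 8.04 and 7.60 for ATR. CHEK2 had a change of -0.08 (SE 0.08), and near-identical pseudogene copies can add to its signal. POLQ, the polymerase of microhomology-mediated joining, and MSH6, a mismatch sensor, had changes of -0.37 (SE 0.13, limma adjusted p = 0.151) and -0.16 (SE 0.10).

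**Figure D2:**
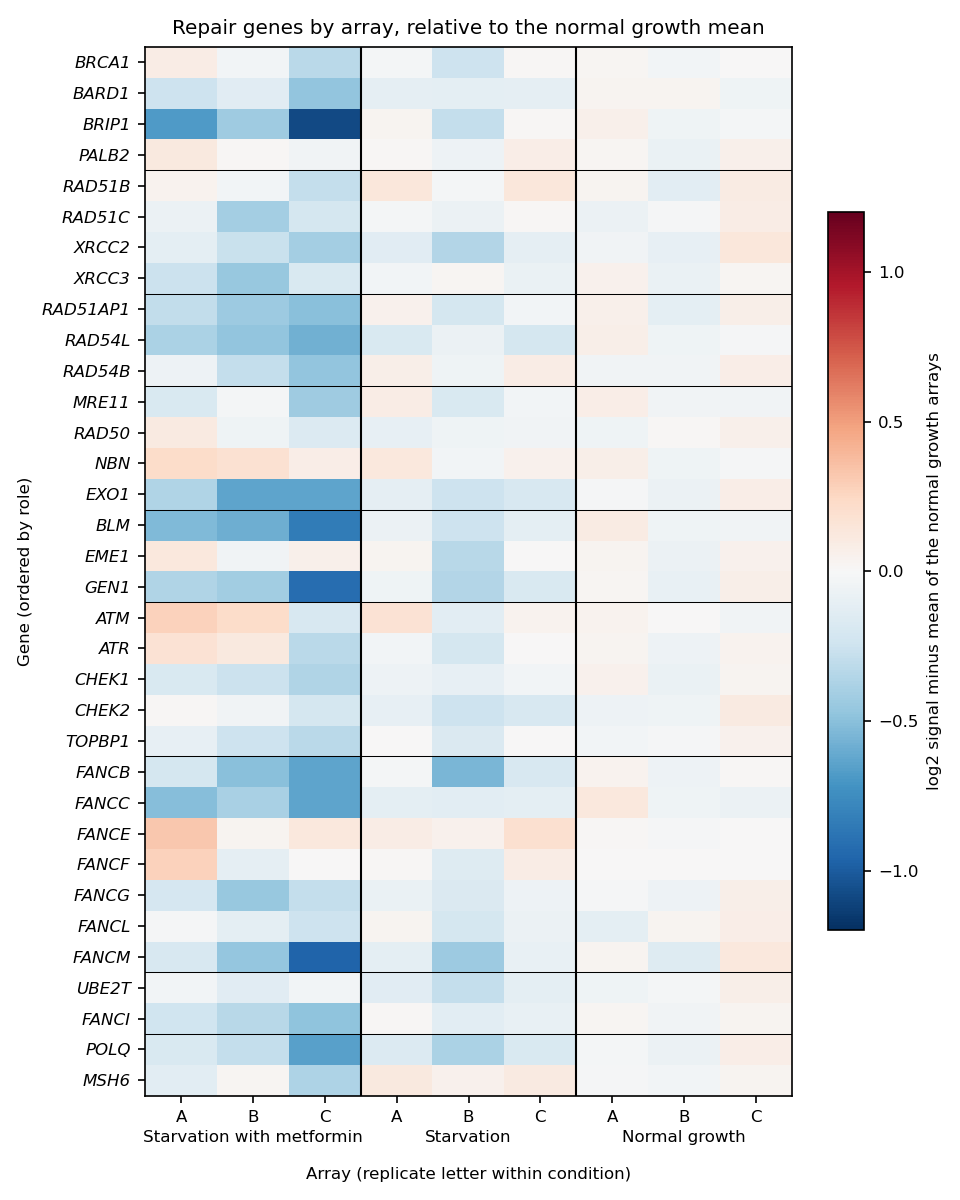
Signal of each of the 34 repair genes (rows, ordered by role with lines between roles) on each array (columns, replicate letters within starvation with metformin, starvation and normal growth), as log2 signal minus the gene's mean over the normal growth arrays. Blue is lower than this mean; the darkest cells are BRIP1, FANCM and GEN1 on metformin replicate C, and replicate B is the bluest of the starved columns.

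Stretches of the promoters of 5 of the 7 genes that fell are shown because these genes passed the test against normal growth. Each has the 150 bases before the most upstream RefSeq start site (GRCh38.p14), in which capitals mark the NF-Y box CCAAT, or ATTGG as read on the other strand, and the E2F motif. The E2F motif was searched as TTTCCCGC, TTTGGCGC, TTTGCCGC or TTTCGCGC, and a cell cycle homology region as TTTGAA, all on both strands, and these words do not overlap one another in the stretches shown.
BRIP1, chr17:61863529-61863678, minus strand: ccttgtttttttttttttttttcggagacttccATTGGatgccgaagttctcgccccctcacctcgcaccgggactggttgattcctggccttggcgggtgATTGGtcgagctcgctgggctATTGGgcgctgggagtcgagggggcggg
BLM, chr15:90717196-90717345, plus strand: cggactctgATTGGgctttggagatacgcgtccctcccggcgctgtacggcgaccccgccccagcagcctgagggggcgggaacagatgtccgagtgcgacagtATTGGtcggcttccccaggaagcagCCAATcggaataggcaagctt
RAD54L, chr1:46247538-46247687, plus strand: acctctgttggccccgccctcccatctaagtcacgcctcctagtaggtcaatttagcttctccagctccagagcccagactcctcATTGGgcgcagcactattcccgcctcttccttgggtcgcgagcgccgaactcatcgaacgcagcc
RAD51AP1, chr12:4538740-4538889, plus strand: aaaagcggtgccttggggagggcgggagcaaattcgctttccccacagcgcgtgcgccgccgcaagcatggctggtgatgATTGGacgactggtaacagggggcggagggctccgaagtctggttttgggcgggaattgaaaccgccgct
FANCC, chr9:95317710-95317859, minus strand: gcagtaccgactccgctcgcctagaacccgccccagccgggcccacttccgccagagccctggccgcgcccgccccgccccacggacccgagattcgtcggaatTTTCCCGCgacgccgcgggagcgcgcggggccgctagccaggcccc
BRIP1 and BLM each had 3 NF-Y boxes in these stretches, RAD54L and RAD51AP1 had 1 each, and FANCC had no such box but the E2F motif TTTCCCGC at position -46 from the start. RefSeq windows from 250 bases before to 50 after a start were found for 31 of the 34 members, as 44 windows. The E2F motif was in 13.6% of them and in 3.31% of all 35116 windows, the NF-Y box in 45.5% and 34.6%, and the cell cycle homology region in 11.4% and 15.2%. Of the 9 windows of called members 2 held the E2F motif and 5 the NF-Y box, and of the 35 windows of the other members 4 and 15 did. The 2 with the E2F motif belonged to FANCC and to EXO1, whose stretch is not shown. A match describes the letters only, and binding was not measured.

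Metformin was also compared with starvation alone, which shares its serum-free medium. Of the 34 members, 1 was lower (FANCC) and 0 were higher (limma, adjusted p under 0.05), beside 1.98% lower and 2.3% higher of all probe sets, a share near this background. At an unadjusted p under 0.05, 11 members were lower and 0 were higher, and 8.63% of all probe sets were lower. The adjusted count depended on the fit, with 7 members lower, beside 4.6% of all probe sets, when all 9 arrays were fitted together, and 5, beside 2.83%, after a second quantile normalization. FANCC was 1.31-fold lower, with a log2 change of -0.39 (SE 0.07, limma adjusted p = 0.0498). This call was lost whichever array was left out, with an adjusted p of 0.141, 0.0543 and 0.0646 when it was metformin replicate A, B or C, and of 0.179, 0.128 and 0.185 when it was starved replicate A, B or C. In the fits without metformin replicate A or any 1 starved array, 0 of all probe sets passed, so that no gene could keep a call there. The shares of all probe sets lower were 1.05% and 1.17% without metformin replicate B or C. The median change of the members was -0.18, against -0.01 for all probe sets. All metformin arrays lay below all starved arrays in 14 members, beside 11.4% of all probe sets, and above them in 0.
The next members by size of change among those without overlap were BRIP1 at -0.65 (SE 0.18, limma adjusted p = 0.121), BLM at -0.51 (SE 0.10, limma adjusted p = 0.0518), GEN1 at -0.37 (SE 0.17), EXO1 at -0.36 (SE 0.09), RAD51AP1 at -0.35 (SE 0.09) and RAD54L at -0.32 (SE 0.08). In GEN1 the groups were set apart only by 8.13 on metformin replicate A and 8.14 on starved replicate B. The change of BRCA1 was 0 (95% interval -0.32 to 0.32). The widest intervals were those of FANCM, from -0.84 to 0.20, and BRIP1, from -1.10 to -0.20.

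Serum starvation by itself was not followed by a called change in any of the 34 repair genes (0 higher and 0 lower in limma). At an unadjusted p under 0.05, 6 members were lower and 0 were higher, beside 4.74% of all probe sets lower. The same counts, 6 lower and 0 higher, were found without starved replicate A, beside 4.37% of all probe sets lower. Without starved replicate B, 2 members were lower and 2 were higher, beside 6.74% of all probe sets lower. Without starved replicate C or normal growth replicate A, B or C, 2, 2, 3 and 1 members were lower and 0 were higher. The shares of all probe sets lower were then 4.13%, 4.54%, 4.35% and 3.53%. The methods' t-test gave 0 after adjustment as well. Over all probe sets 0.108% were lower and 0.042% were higher, which is 36 and 14 probe sets. After a shift of every array to one median these were 24 and 4, and 0 members were lower or higher at an unadjusted p under 0.05. Changes of the members ranged from -0.25 for FANCB to 0.11 for FANCE, with a median of -0.08 against 0 for all probe sets. In 9 members every starved array was below every array of normal growth, beside 7.62% of all probe sets, and in 2, FANCE and MSH6, every one was above. POLQ was at 7.75, 7.53 and 7.73 in starved cells and 7.89, 7.84 and 7.99 in normal growth, a change of -0.24 (SE 0.08, limma adjusted p = 0.48). UBE2T was at 10.00, 9.85 and 10.02 in starved cells and 10.09, 10.12 and 10.21 in normal growth, a change of -0.19 (SE 0.06, limma adjusted p = 0.517). In both genes starved replicate B was the lowest of the 6 arrays. XRCC2, EXO1, CHEK2 and RAD54L, also without overlap, had changes of -0.20, -0.18, -0.18 and -0.15. The intervals of all 4 reached no further than -0.43, a fall smaller than the study's limit of 2-fold.

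**Figure D3:**
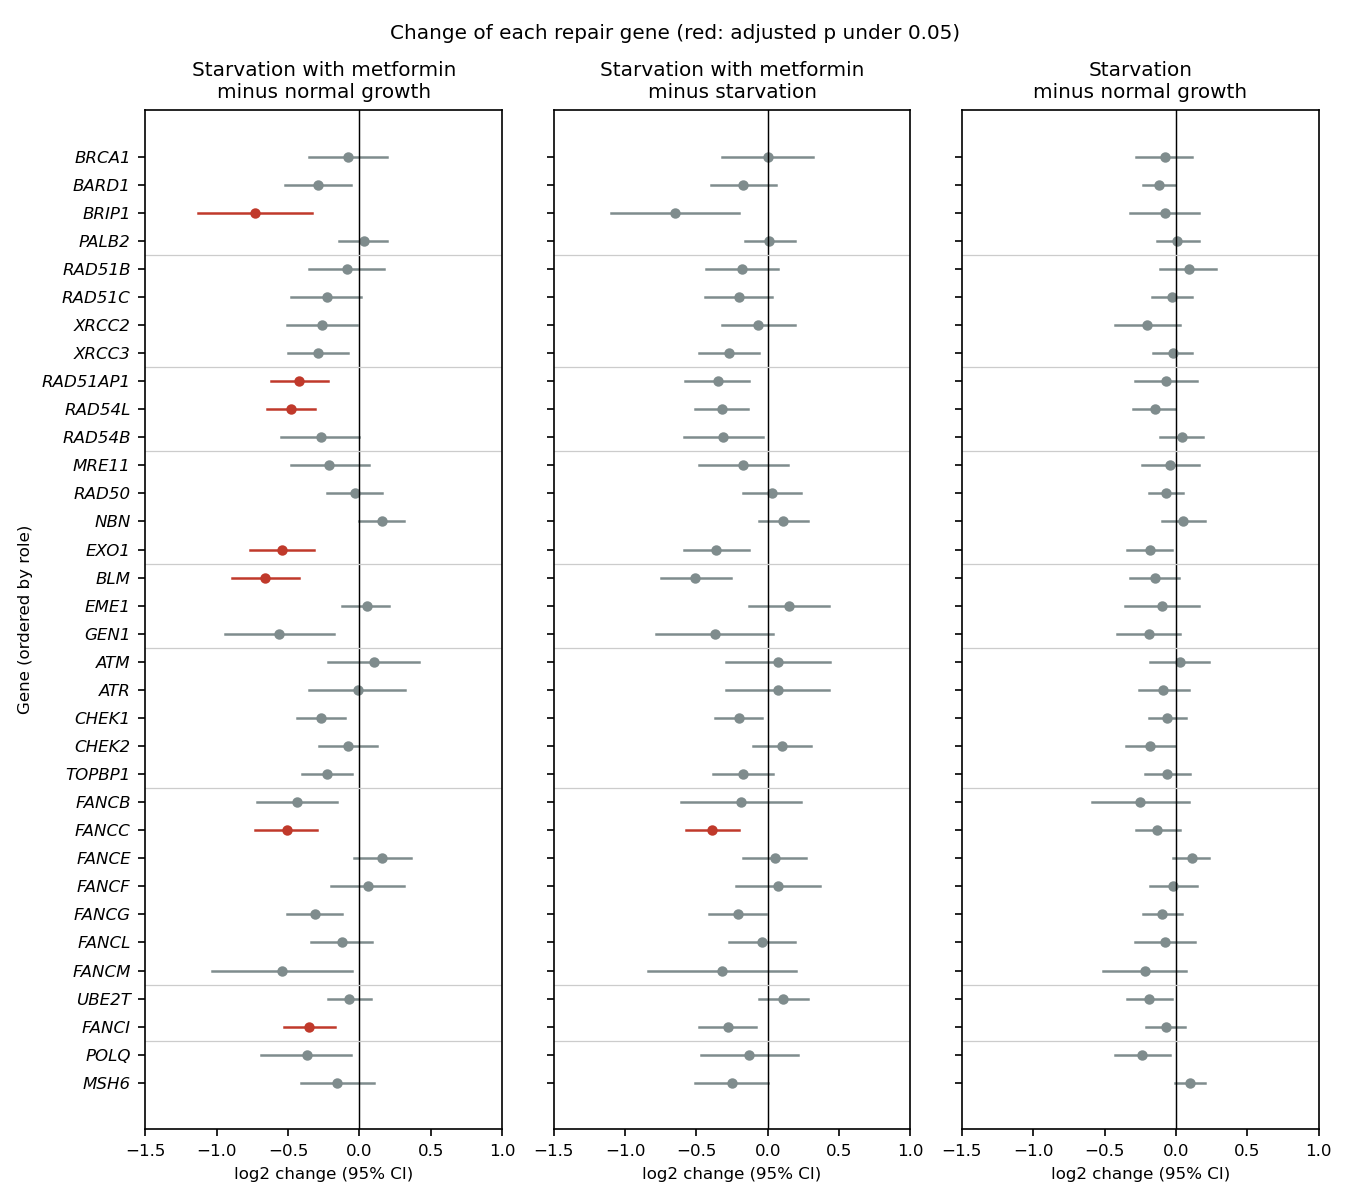
Log2 change (horizontal axis) of the 34 repair genes with its 95% interval from limma, for starvation with metformin minus normal growth, starvation with metformin minus starvation, and starvation minus normal growth. Red marks an adjusted p under 0.05, with 7 genes in the first panel, FANCC in the second and none in the third.

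The 3 differences are built from the same 9 arrays, so that for each gene the difference of metformin from starvation and that of starvation from normal growth add up to that of metformin from normal growth, and they are not independent. For BRIP1 the parts were -0.65 and -0.08 of -0.73, for BLM -0.51 and -0.15 of -0.66, for EXO1 -0.36 and -0.18 of -0.54 and for FANCI -0.28 and -0.07 of -0.35. UBE2T had 0.11 and -0.19, parts of opposite sign that left -0.07. In 13 members all 3 metformin arrays lay below the other 6 arrays, among them the 7 called genes, beside 9.19% of all probe sets, and in 0 members they lay above. The other 6 were BARD1, XRCC3, RAD54B, GEN1, CHEK1 and FANCG.

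The members also shared shifts between the arrays of 1 group. Metformin replicate C had the lowest signal of its group in 27 of the 34 members, whereas it was the lowest in 39.3% of named genes. Starved replicate B was the lowest of its group in 31 members and in 43.1% of named genes, and normal growth replicate B in 25 members and in 41.4%. The median of the members relative to the mean of normal growth was -0.12, -0.26 and -0.34 on metformin replicates A, B and C, and -0.02, -0.17 and -0.04 on starved replicates A, B and C. Starved replicate B thus lay between metformin replicates A and B, and the groups overlapped in this summary. Without starved replicate B the median change in starvation was -0.03, and without metformin replicate C the median change against starvation was -0.09. The part of array quality in these shifts was not tested.

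A list of further genes of the same pathways was compared between starvation with metformin and normal growth. There 4.44% of all probe sets were lower and 4.63% were higher. For named genes brighter than the median probe set the shares were 9.5% and 9.01%. The list's median change was -0.09, and its share lower, 8.57%, was near that of the brighter genes. Of 35 further recombination and Fanconi genes measured, 3 were lower and 0 were higher. They were DNA2, a nuclease and helicase of long-range resection (-0.55, SE 0.11), SLX4, a scaffold of structure-specific nucleases (-0.31, SE 0.06), and CENPX, a partner of FANCM (-0.31, SE 0.06). Among 25 genes of damage signalling and its chromatin adaptors, 7 (28%) were lower and 2 (8%) were higher. CLSPN, which links ATR to CHEK1, had a change of -0.98 (SE 0.15), CDC25A, the phosphatase that CHEK1 restrains, of -0.72 (SE 0.07) and the histone variant gene H2AX of -0.45 (SE 0.05). ABRAXAS1, a scaffold that holds BRCA1 at ubiquitin marks, was higher, at 8.03 with metformin, 7.09 in starved cells and 7.06 in normal growth (change 0.97, SE 0.07, limma adjusted p = 0.00508).
The lists of other repair routes held changes in both directions in starvation with metformin against normal growth. Over all probe sets 4.44% were lower and 4.63% were higher there, and over the brighter named genes 9.5% and 9.01%. These lists are short, and their counts are not read as results about a repair route. Of 12 end joining genes 3 were lower, XRCC5 (-0.36) and XRCC6 (-0.28) of the Ku heterodimer among them, and 2 were higher, APLF (0.43) and POLL (0.40). Of 4 mismatch repair genes 2 were higher, PMS2 (0.63) and PMS1 (0.32), and PMS2 has near-identical pseudogene copies that can add to its signal. Of 18 base excision genes, UNG (-0.52) and APEX2 (-0.44) were lower and NEIL1 (0.54) was higher. Of 14 nucleotide excision genes, ERCC2 (0.39) and XPC (0.37) were higher and 0 were lower. In starvation against normal growth 0 genes of these 6 lists passed in limma, with 0 to 3 lower and 0 to 1 higher in each list at an unadjusted p under 0.05. Of 13 targets of p53, the factor activated by DNA damage, 3 were higher and 2 were lower with metformin than in normal growth, SESN2 (0.67), ZMAT3 (0.63) and AEN (-0.51) among them. CDKN1A, the cell cycle inhibitor p21, had a change of -0.53 (SE 0.12, limma adjusted p = 0.0504) and GADD45A one of 0.51 (SE 0.13, limma adjusted p = 0.0651), both without overlap between the groups.

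Many genes of DNA replication and mitosis were also lower in starvation with metformin than in normal growth, and their part in the result was not tested. Of 37 replication genes of S phase 28 were lower in starvation with metformin than in normal growth, with a median change of -0.56. Of 29 mitotic genes 18 were lower, with a median of -0.36, beside 4.44% of all probe sets. Against starvation, 21 (56.8%) and 2 (6.9%) of them were lower, beside 1.98% of all probe sets. In starvation against normal growth 0 passed in limma, beside 0.108% of all probe sets lower. At an unadjusted p under 0.05, 7 and 21 were lower there, beside 4.74%. The mean level of the replication genes was 8.79 to 8.97 on the metformin arrays, 9.32 to 9.43 on the starved arrays and 9.41 to 9.48 in normal growth. That of the repair genes was 8.12 to 8.40, 8.33 to 8.49 and 8.46 to 8.54 in the same groups, so that it overlapped between metformin and starved arrays where that of the replication genes did not.

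**Figure D4:**
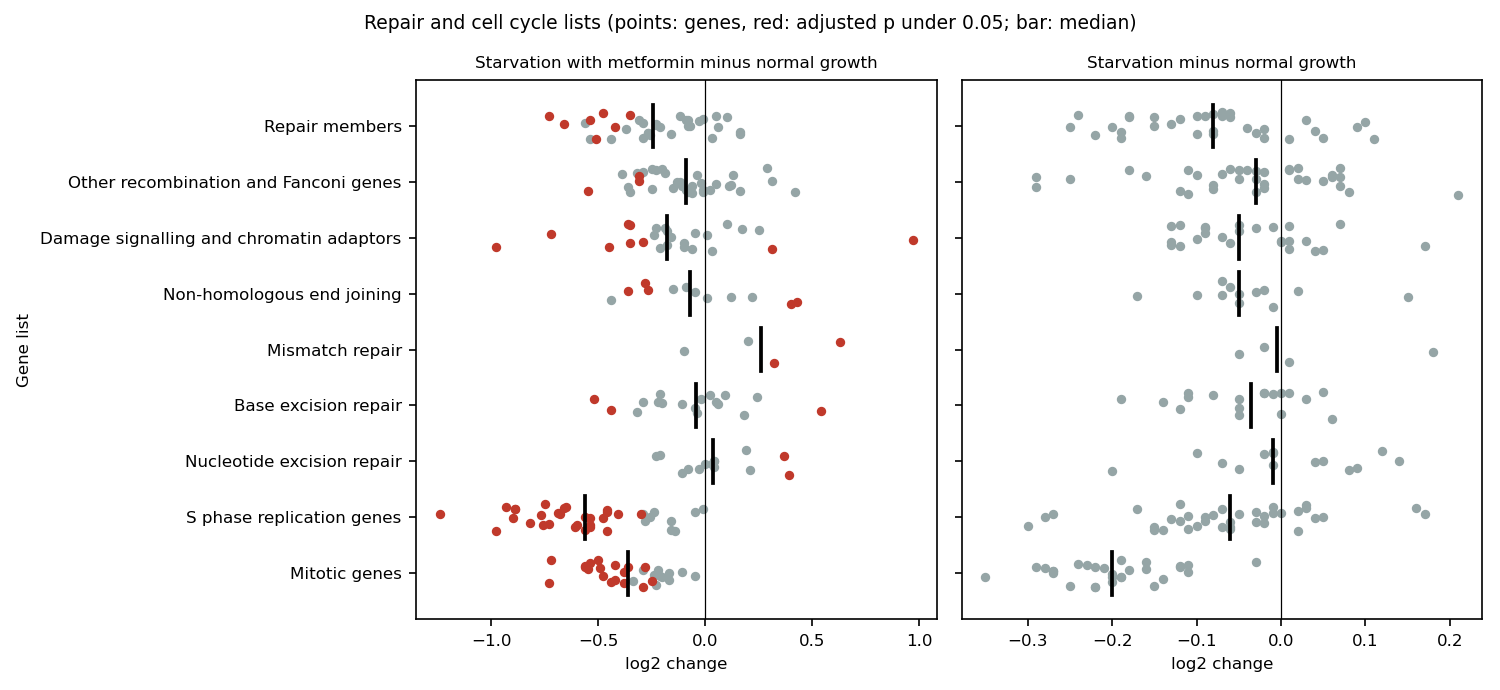
Log2 change (horizontal axes, with different ranges) of each gene of 9 lists, for starvation with metformin minus normal growth and for starvation minus normal growth. Points are genes, red at an adjusted p under 0.05 in limma, and bars are list medians, -0.25 and -0.08 for the repair members and -0.56 and -0.06 for the replication genes.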

How the data were processed

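Transcripts of 9 H295R samples were hybridised to GeneChip Human Gene 1.0 ST arrays. The table deposited by the authors holds a log2 signal for each of 33297 probe sets. RMA, Affymetrix Expression Console and limma stand in the submitters' processing notes and Affymetrix Power Tools in the study's methods, without versions. In RMA a background model, quantile normalization and median polish over probes are applied in turn, which can compress small differences at low signal. Precision is limited by the number of arrays, 3 in each group.

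In the array annotation 19460 probe sets have 1 symbol, 1754 have several and 12083 have none. Each comparison was fitted on its own 6 arrays, without a block, by limma 3.58.1 (lmFit, eBayes; R 4.3.3) for all probe sets, with Benjamini-Hochberg adjustment of p over all of them. The fit was tested on simulated data. Members and lists were chosen with earlier results of these data known, and no p was adjusted over a list. Members at an adjusted p under 0.05 are given with every array, then, where fewer than 6 passed, those without overlap by size of change. Of other lists up to 4 called genes are named, and further members were named after their values were seen. Promoter sequences are from RefSeq (GRCh38.p14). That of EXO1 was not shown because its start lies inside the annotated gene, and FANCI had no window. Alternatives changed the arrays fitted, scaling, filters, variance moderation, test and block, and left out each array. Array weights were chosen after seeing the data.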

Additional observations from a re-analysis of the deposited data

How the results depend on the processing

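In starvation with metformin against normal growth, 7 repair genes passed. The count was 11 in a fit of all 9 arrays, 11 without dim probe sets and 11 over probe sets with 1 symbol. With array weights it was 13, and each of these counts held the 7. Of the probe sets tested, 6.4%, 10.9%, 9.26% and 6.92% were then lower. The count was 10 after quantile normalization again, 9 with a variance trend and robust moderation and 6 after a shift to one median. The shares lower were then 5.18%, 6% and 4.32%. With a Student's t-test of each probe set the count was 1 (RAD54L), beside 2.29%. It ranged from 0 to 8 when 1 array was left out. Against starvation, where 1 passed, the count was 7 with all 9 arrays, 3 without dim probe sets, 3 with 1 symbol and 6 with array weights. The shares lower were then 4.6%, 5.92%, 4.97% and 4.24%. It was 5 after quantile normalization again, beside 2.83%, and 2 with a variance trend and robust moderation, beside 3.45%. With the t-test, after a shift to one median and without any 1 array, 0 members passed against starvation. The shares of all probe sets lower were 0.997% with the t-test and 0.961% after the shift. They were 1.05% and 1.17% without metformin replicate B or C, and 0% with any other array left out. Over all probe sets the number lower ranged from 0 to 2304 against normal growth, where it was 1478, and from 0 to 1530 against starvation, where it was 659. Over all these alternatives the limma or t-test adjusted p against normal growth lay between 0.00336 and 0.0774 for BLM, 0.00381 and 0.0778 for RAD54L, 0.00535 and 0.0961 for EXO1, 0.00455 and 0.0885 for FANCC, 0.0138 and 0.133 for RAD51AP1, 0.0155 and 0.151 for FANCI, and 0.02 and 0.169 for BRIP1. Against starvation it lay between 0.0188 and 0.185 for FANCC. In starvation against normal growth every alternative gave 0 repair genes. The medians of the members moved by less than the spread between arrays wherever they were computed, which was not done with array weights. This limit is wide enough to hold the move from -0.18 to -0.09 against starvation without metformin replicate C. Of 304 values of named genes under alternatives, 240 stayed on their side of the threshold, 51 lost a call, 13 gained one and 0 changed sign. The 240 include values that were no call in either fit, so they do not measure how stable the calls were. Each call against normal growth was lost in 4 (RAD54L) to 8 (RAD51AP1) of 16 alternatives. For FANCC against starvation it was 9 of 16. Among the 16, averaging probe sets per gene could change nothing, because no member had more than 1.

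The replicate letters recur in each group and nothing says that they mark a shared experiment. Deviations of same-letter arrays from their group means correlated between -0.249 and 0.294 across probe sets, not all above 0.1, so the arrays were not treated as paired. With the replicate block, 0 repair genes passed in each comparison, and over all probe sets the counts were 0 as well. The deviations of metformin replicate C and starved replicate B had a correlation of 0.44. With 3 arrays against 3, an exact permutation test of a single gene could not give a p below 0.1.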
